A study of Mus musculus with 24 samples.

Results

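The miR-21 vector was compared with an empty vector in hearts of mice that had not been trained by swimming. The comparison takes 6 libraries from ovariectomised mice given AAV9 that overexpresses miR-21 and 6 from ovariectomised mice given empty AAV9, with hearts taken 3 weeks after myocardial infarction, and these are 12 of the 24 samples of the series. AAV9 is an adeno-associated virus that carries genes into heart muscle. The other samples had the same surgery and vectors and were trained by swimming, and they enter here where the spread between libraries is estimated and where the effect of the vector with swimming is set beside the one without. All groups share ovariectomy and infarction, so no library shows an uninjured heart or one with ovarian hormones. The labels give no strain, age, vector dose, promoter or heart region. They do not say whether any mouse gave more than 1 library, and p-values here measure only the spread between samples, which may be technical.

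MicroRNAs are short RNAs that guide the silencing complex to messenger RNAs through pairing of their seed, the bases near their 5′ end, with the 3′ untranslated region (3′ UTR). miR-21 is made from a precursor within the Vmp1 gene, is found in many heart cell types and is known for its rise in fibroblasts of the injured heart. After an infarct, activated fibroblasts lay down a collagen scar, while surviving cardiomyocytes burn fatty acids in their mitochondria and turn on a fetal and stress programme.

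The mature miR-21a-5p is shown first, because every predicted site follows from its seed, in capitals, which is bases 2 to 8 counted from the 5′ end. The sequence is from RefSeq, where it lies on the minus strand at chr11:86584120-86584141 of GRCm38.p6. Of 1738 mature mouse miRNAs in that table, 2 have this seed, miR-21a-5p and miR-21c. Below it stand stretches of the 3′ UTRs of 6 mRNAs published as miR-21 targets, from GENCODE transcripts of the same build, each with the bases that match the seed in capitals. They are shown because the levels of these mRNAs, given further on, are the direct place to look for an effect of the vector on its targets.
mmu-miR-21a-5p: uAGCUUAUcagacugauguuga
Pdcd4 site: gtgtgggtgttctgATAAGCTActtt
Spry1 site: atgtaagtgcttaaATAAGCTAtata
Reck site: ttttacagtttgaaATAAGCTAttaa
Timp3 site: tttttgagctttcaATAAGCTAtagc
Tgfbr2 site: gagactgtcatggcATAAGCTgtgc
Yod1 site: ctctgggttttccaATAAGCTAttca
Tgfbr2 has the 7-base match only, and the other 5 also have the A that makes an 8-base match.

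The 12 libraries held 12744241 to 14657630 counts each. Normalised read counts (CPM, counts scaled to a common library total) below use library sizes scaled by the trimmed mean of M-values (TMM). Correlations of log2 CPM across genes within a group ran from 0.953 to 0.99, and 0 of the 66 pairs of libraries had identical counts. Markers of the labelled tissue were present, with the 10 cardiomyocyte markers summing to 78280 to 112900 CPM (median 100100) with the empty vector and 108200 to 122300 CPM (median 113100) with the miR-21 vector. The expression of the vector itself could not be checked, since the count table has no row for the miR-21 precursor and poly(A) libraries do not hold mature miRNAs. Vmp1, the host gene, stood at 52.5 to 88.3 CPM (median 56.2) and 47.6 to 61.2 CPM (median 54.7), a log2 fold change of -0.20 ± 0.12 (adjusted p = 0.262).

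Empty-vector replicates 2, 4 and 5 stood apart from the other libraries. On the first principal component of the 12 libraries, which took 53.5% of the variance, they lay at 65.2, 54.8 and 27.8 (replicates 2, 5 and 4), the other 3 empty-vector libraries at -8.09 to -4.20, and the miR-21-vector libraries at -37.8 to -16.2 except replicate 6 at 9.28. Empty-vector replicates 2 and 5 carried adipocyte RNA: Cfd, the adipokine adipsin, stood at 148 and 114 CPM there against at most 8.47 CPM in the other 10 libraries, and Plin1, which coats lipid droplets, at 12.2 and 8.97 CPM against at most 0.786 CPM. Replicate 2 of the miR-21-vector group with swimming was the only other library of the series with as much Cfd, 147 CPM, and it enters the estimate of the spread. Replicates 2, 4 and 5 also had the highest sums of fibroblast markers of the 12 libraries (4486, 4325 and 4459 CPM in replicates 5, 4 and 2, against 2284 to 3072 CPM (median 2557) with the miR-21 vector) and the lowest sums of cardiomyocyte markers (78280, 95640 and 83470 CPM). The part of these 3 libraries in any result was not tested beyond leaving them out. In bulk RNA, fewer cells of a type and less RNA per cell cannot be told apart.

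**Figure D1:**
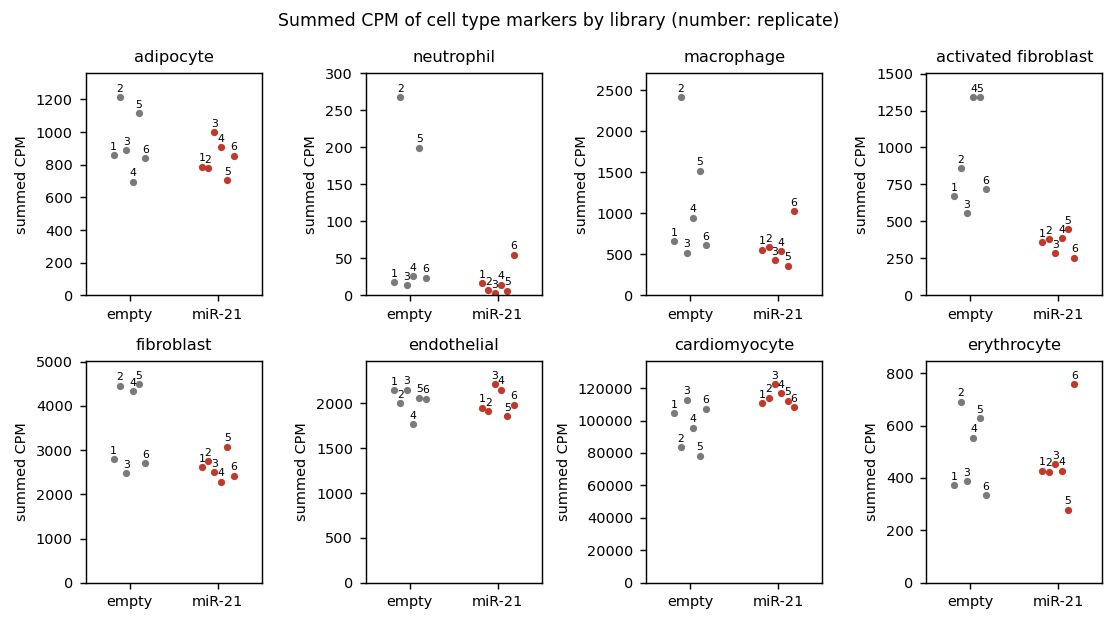
Summed CPM of marker genes (vertical axes, linear, from 0) in each empty-vector (grey) and miR-21-vector (red) library, with the replicate number at each point. The fibroblast sums of empty-vector replicates 2, 4 and 5 lie above all other points, and the adipocyte sum is mostly Fabp4, which other heart cells express too.

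Of 13501 genes tested, 304 (2.25%) changed with the miR-21 vector at an adjusted p under 0.05 in edgeR's quasi-likelihood test, 119 higher (0.881%) and 185 lower (1.37%), and 3828 had an unadjusted p under 0.05. Each of the 304 moved in all 6 miR-21-vector libraries relative to the empty-vector mean, and for 208 of them the groups did not overlap, against 5.44% of all tested genes. Both counts come from the same libraries by which the 304 were chosen, so they are not separate evidence. The rises were small, with a median log2 fold change of 0.43 and 3 genes over 2-fold, while the falls had a median of -0.67 and 67 genes over 2-fold. The median over all tested genes was -0.0048. For 173 of the 185 lower genes the highest empty-vector library was replicate 2, 4 or 5, against 55.6% of all tested genes, and for 100 of the 119 higher genes the lowest was 1 of these 3, against 58.3%.

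How many genes passed depended on which libraries entered. With only the 12 libraries compared, 1622 of 12991 genes (12.5%) passed, 744 higher (5.73%) and 878 lower (6.76%), including 290 of the 304. Without the 3 adipocyte-high libraries (empty-vector replicates 2 and 5 and miR-21-vector swimming replicate 2) 771 of 13389 (5.76%) passed, 387 higher (2.89%) and 384 lower (2.87%), 257 of them among the 304. With 10 of the 12 libraries alone, leaving out empty-vector replicates 2 and 5, it was 527 of 13048 (4.04%), 187 of them among the 304. Leaving out empty-vector replicate 4 from the fit of all groups as well gave 96 of 13462 (0.713%), 56 higher (0.416%) and 40 lower (0.297%), 74 of them among the 304. With all 23 libraries but 1, the count was 618, 145, 709, 25, 17 and 435 without empty-vector replicates 1 to 6, and 43, 18, 49, 71, 73 and 91 without miR-21-vector replicates 1 to 6. It was 117, 147, 233, 250, 126 and 148 without replicates 1 to 6 of the empty-vector swimming group, and 271, 2885, 520, 138 and 430 without replicates 1 to 5 of the miR-21-vector swimming group. In the fit of the 12 libraries it ran from 502 without miR-21-vector replicate 2 to 2171 without empty-vector replicate 3, and it was 587 without empty-vector replicate 5, 661, 809 and 981 without miR-21-vector replicates 1, 3 and 4, and 870 without empty-vector replicate 4. Of the 304 genes, all that were tested in a given fit had the same direction in it. For lists of genes, counts or medians are also given for the 12 libraries and without "the 4 libraries", which are empty-vector replicates 2, 4 and 5 and miR-21-vector swimming replicate 2.

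The 12 falls and 12 rises with the smallest p-values are given first. Sema3f, a secreted semaphorin that repels axons and vessels through neuropilins, had the smallest p of the falls. It stood at 36.8 to 46 CPM (median 41.5) with the empty vector and 18.1 to 25.9 CPM (median 24.2) with the miR-21 vector, which is -0.86 ± 0.13 on the log2 scale (fold change ± SE from 6 libraries a group, adjusted p = 0.00431). No miR-21-vector library reached the lowest empty-vector library. Hdac4, a histone deacetylase that represses MEF2 targets in muscle, stood at 20.3 to 27.1 CPM (median 23.5) and rose to 32.8 to 39.1 CPM (median 35.8), a log2 fold change of 0.59 ± 0.09 (adjusted p = 0.00431). Its groups did not overlap either.

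The other rises were as follows. Mid1ip1, which helps activate acetyl-CoA carboxylase in fatty acid synthesis, stood at 80.5 to 156 CPM (median 121) and 172 to 222 CPM (median 196) (log2 fold change 0.73 ± 0.13, adjusted p = 0.0107). Pik3ip1, a brake on PI3 kinase, stood at 41.9 to 47.6 CPM (median 43.4) and 53.3 to 71.7 CPM (median 58.6) (0.43 ± 0.08 on the log2 scale). Rhobtb1, an atypical small GTPase, stood at 78.1 to 122 CPM (median 91) and 137 to 178 CPM (median 165) (0.75 ± 0.13, adjusted p = 0.0115). In all of these the lowest miR-21-vector library lay above the highest empty-vector library. Rev1, a DNA polymerase that copies past lesions, rose by 0.50 ± 0.09 on the log2 scale, Lonrf1, a RING finger protein, by 0.71 ± 0.12, Paqr7, a membrane progestin receptor, by 0.64 ± 0.11, Nckap5 by 0.78 ± 0.13, Mettl7a1, a methyltransferase-like protein of the endoplasmic reticulum, by 0.46 ± 0.07, and Tmem57 by 0.31 ± 0.05. The clock output factors Tef and Hlf complete the 12 rises and are described with the clock.

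The other falls were as follows. Mcam, the adhesion molecule CD146 of pericytes and endothelium, stood at 84.3 to 114 CPM (median 107) and fell to 63.6 to 74.9 CPM (median 71.9) (log2 fold change -0.53 ± 0.10, adjusted p = 0.0131). Flt4, the receptor VEGFR-3 of lymphatic endothelium, stood at 36.8 to 58.1 CPM (median 42.8) and fell to 27.9 to 33.8 CPM (median 31.8) (-0.51 ± 0.10, adjusted p = 0.0165). Neither gene had overlapping groups. Slc39a6, a zinc transporter, changed by -0.63 ± 0.12 on the log2 scale, Slc35e4, a solute carrier, by -0.58 ± 0.10, Dmtn, the actin-bundling protein dematin, by -0.62 ± 0.12, Nxn, nucleoredoxin, by -0.48 ± 0.09, Kctd10, an adaptor for the ubiquitin ligase cullin-3, by -0.37 ± 0.07, Sepn1, selenoprotein N, by -0.40 ± 0.08, Sh3bgrl2 by -0.55 ± 0.10, and Ppp2cb, a catalytic subunit of protein phosphatase 2A, by -0.25 ± 0.05. Tpm4 completes the 12 falls and is described with the cytoskeleton. Of these 24 genes, 17 still passed without the 4 libraries. Of all 76 changed genes with values in this text, 11 passed under each of 32 alternatives: Sema3f, Slc35e4, Hdac4, Tmem57, Mettl7a1, Tef, Lonrf1, Nckap5, Mid1ip1, Pik3ip1 and Hlf.

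**Figure D2:**
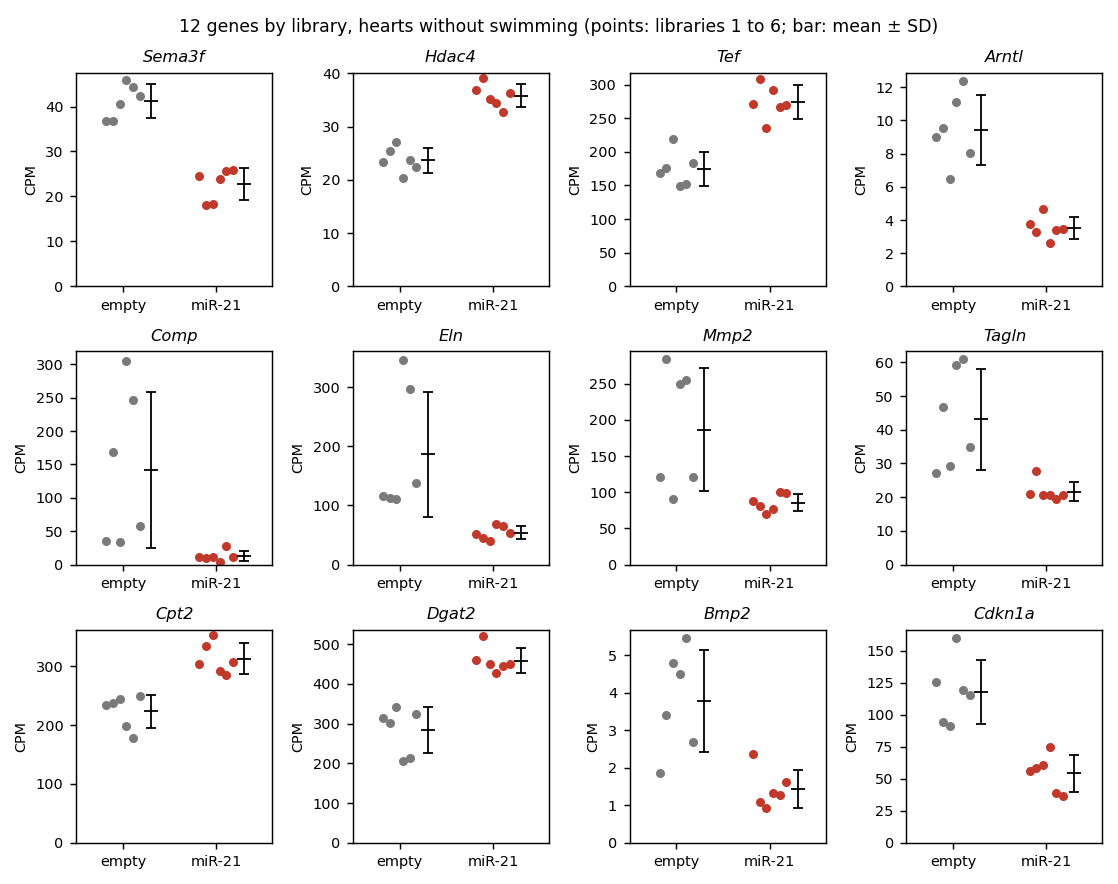
CPM (vertical axes, linear, from 0) of 12 genes in the 6 empty-vector (grey) and 6 miR-21-vector (red) libraries, drawn from left to right as replicates 1 to 6, with the mean ± SD beside them. The groups of Sema3f, Hdac4, Tef and Arntl do not overlap, and the empty-vector points of Comp, Eln, Mmp2 and Tagln spread over a wide range.

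Genes of the scar matrix were lower with the miR-21 vector, with wide spread among the empty-vector libraries. Fibrillar and associated collagens, the rope-like part of the scar, had log2 fold changes below 0 in 14 of 14 tested, with a median of -1.37 against -0.0048 over all genes. Of these 14, 2 fell (1.37% of all genes fell), and 10 of 12 fell in the fit of the 12 libraries (6.76% of all). Without the 4 libraries 0 passed, with a median of -0.56. In the fits of 11 of the 12 libraries, 3 to 10 fell, the fewest without miR-21-vector replicate 2.

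The 2 that fell were Col5a3 and Col11a1. Col5a3, a chain of the collagen V that nucleates fibrils, stood at 30.6 to 63.1 CPM (median 51.9) and 23.2 to 34.6 CPM (median 26) (log2 fold change -0.92 ± 0.22, adjusted p = 0.0399), with the highest value in empty-vector replicate 5. Col11a1, a minor fibrillar collagen of cartilage and scars, stood at 0.214 to 8.15 CPM (median 2.84) and 0 to 0.506 CPM (median 0.320) (-3.64 ± 0.91, adjusted p = 0.0436). In both genes the groups overlapped. The major scar collagens missed the threshold, and are named here after their values were seen. Col1a1 stood at 226 to 1221 CPM (median 522) and 99.4 to 233 CPM (median 153) (log2 difference -1.92 ± 0.53, adjusted p = 0.0551, 0.485 without the 4 libraries, range 0.0069 to 0.485 over its alternatives), and Col3a1 at 604 to 4023 CPM (median 1309) and 229 to 716 CPM (median 383) (-2.10 ± 0.60, adjusted p = 0.0592).

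Network, microfibrillar and basement membrane collagens had a median of -0.66 over 17 genes, of which 0 passed. In the fit of the 12 libraries 8 of the 17 fell, against 6.76% of all genes. Col4a2, a basement membrane chain, stood at 722 to 1124 CPM (median 983) and 553 to 787 CPM (median 660.0) (log2 difference -0.56 ± 0.16, adjusted p = 0.0553), and Col6a1, of microfibrils around cells, at 179.9 to 331 CPM (median 239.8) and 99.4 to 182 CPM (median 131) (-0.86 ± 0.24, adjusted p = 0.0561). Of 29 enzymes that modify, trim and crosslink collagen, 26 lay below 0 and 3 above, with a median of -0.40. Of these 29, 4 fell and 1 rose, against 1.37% and 0.881% of all genes. In the fit of the 12 libraries 16 fell and 2 rose, against 6.76% and 5.73% of all. P4ha3, a collagen prolyl hydroxylase subunit, changed by -2.80 ± 0.67 on the log2 scale (adjusted p = 0.0408), Loxl3, a lysyl oxidase that crosslinks collagen and elastin, by -1.34 ± 0.35 (0.0490), and Plod3, a lysyl hydroxylase, by -0.33 ± 0.08 (0.0420). The gene that rose was Tll2, a tolloid-like protease, at 0.674 to 2.36 CPM (median 0.844) and 1.78 to 3.21 CPM (median 2.89) (1.21 ± 0.30, adjusted p = 0.0419). Without the 4 libraries, 0 of either list passed, with medians of -0.29 for the collagens and -0.24 for the enzymes.

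Elastic fibre genes had a median of -0.77 over 17 genes, of which 1 fell (1.37% of all genes fell). The member that fell was Eln itself, the elastin precursor, at 110.2 to 345 CPM (median 127) and 40.1 to 68.7 CPM (median 52.8), a log2 fold change of -1.79 ± 0.42 (adjusted p = 0.0394). Its groups did not overlap, and empty-vector replicates 4 and 5 lay far above the other 4. In the fit of the 12 libraries 10 of the 17 fell and 1 rose, against 6.76% and 5.73% of all genes. Matricellular proteins and proteoglycans, which sit in the matrix and tune cell adhesion, had a median of -0.96 over 34 genes. Of these 3 fell (1.37% of all genes), and 12 of 31 fell in the fit of the 12 libraries (6.76% of all). Comp, the cartilage oligomeric matrix protein that helps assemble collagen, stood at 33.8 to 304 CPM (median 113) and 4.18 to 28.2 CPM (median 11.6) (-3.44 ± 0.85, adjusted p = 0.0440). Acan, the proteoglycan aggrecan, stood at 0.225 to 5.32 CPM (median 1.80) and 0 to 0.355 CPM (median 0.183) (-3.58 ± 0.83, adjusted p = 0.0362), and Matn2, the adaptor matrilin-2, at 24.9 to 49.3 CPM (median 36.3) and 22.3 to 24.5 CPM (median 22.9) (-0.65 ± 0.14, adjusted p = 0.0297). Comp and Matn2 did not overlap between the groups, while the lowest Acan value with the empty vector was below the highest with the miR-21 vector. Without the 4 libraries 0 of these lists passed, with medians of -0.28 and -0.30.

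Matrix proteases and their inhibitors had a median of -0.58 over 36 genes, of which 4 fell (1.37% of all genes). In the fit of the 12 libraries 13 of 34 fell (6.76% of all), and 0 without the 4 libraries. Adamts4, an aggrecan-cutting protease, stood at 1 to 3.70 CPM (median 2.76) and 0.0737 to 0.852 CPM (median 0.252) (-2.74 ± 0.63, adjusted p = 0.0343). Mmp2, a gelatinase, stood at 90.6 to 284 CPM (median 185) and 69.4 to 100 CPM (median 84.1) (-1.12 ± 0.28, adjusted p = 0.0436), with empty-vector replicates 2, 4 and 5 at 284, 250 and 255 CPM and the other 3 at 90.6 to 121 CPM. Adam12 changed by -2.30 ± 0.58 on the log2 scale and Adam15 by -0.34 ± 0.09, both membrane metalloproteases. Of these 4 genes, Mmp2 was the one whose groups overlapped.

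Activated fibroblast markers were lower in 22 of 23 genes, with a median of -1.19. Of the 23, 4 fell (1.37% of all genes). In the fit of the 12 libraries 14 fell (6.76% of all), and 7 without empty-vector replicate 5. Without the 4 libraries 0 passed, with a median of -0.46. Cthrc1, a secreted protein of scar fibroblasts, stood at 1.21 to 11.2 CPM (median 4.48) and 0.169 to 0.853 CPM (median 0.615) (-3.23 ± 0.84, adjusted p = 0.0486), and Ddah1, which degrades a nitric oxide synthase inhibitor, at 9.93 to 21.8 CPM (median 13.4) and 6.52 to 10.1 CPM (median 7.91) (-0.88 ± 0.23, adjusted p = 0.0490). The other members that fell, Comp and Sfrp1, are described elsewhere in this section. Postn, periostin, the classical marker of activated fibroblasts and named after its values were seen, stood at 152 to 496 CPM (median 261) and 60.4 to 143 CPM (median 91.2) (-1.74 ± 0.51, adjusted p = 0.0622). Every miR-21-vector library lay below every empty-vector library for Postn, and the sum of the 8 markers listed for this cell state was 554 to 1341 CPM (median 789) and 255 to 449 CPM (median 370.5), also without overlap.

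Markers of resting fibroblasts had a median of -0.43 over 20 genes, with 0 past the threshold. In the fit of the 12 libraries 5 of the 20 fell, against 6.76% of all genes. Without the 4 libraries the median was -0.12 with 0 past the threshold. Ly6a, the surface protein Sca-1, stood at 162 to 245 CPM (median 180.2) and 119.8 to 161 CPM (median 138) (-0.44 ± 0.12, adjusted p = 0.0510), and Htra3, a secreted serine protease, at 135 to 217 CPM (median 164) and 110.2 to 145 CPM (median 131) (-0.42 ± 0.12, adjusted p = 0.0511). Of 28 integrin and focal adhesion genes, 1 fell, where 1.37% of all genes fell. It was Itgb3, the integrin beta 3 chain, at 4.57 to 12 CPM (median 6.79) and 1.77 to 4.19 CPM (median 3.80) (-1.21 ± 0.32, adjusted p = 0.0490). In the fit of the 12 libraries 4 of 27 fell and 1 rose, against 6.76% and 5.73% of all genes. Without the 4 libraries 0 of the integrin and focal adhesion genes passed.

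**Figure D3:**
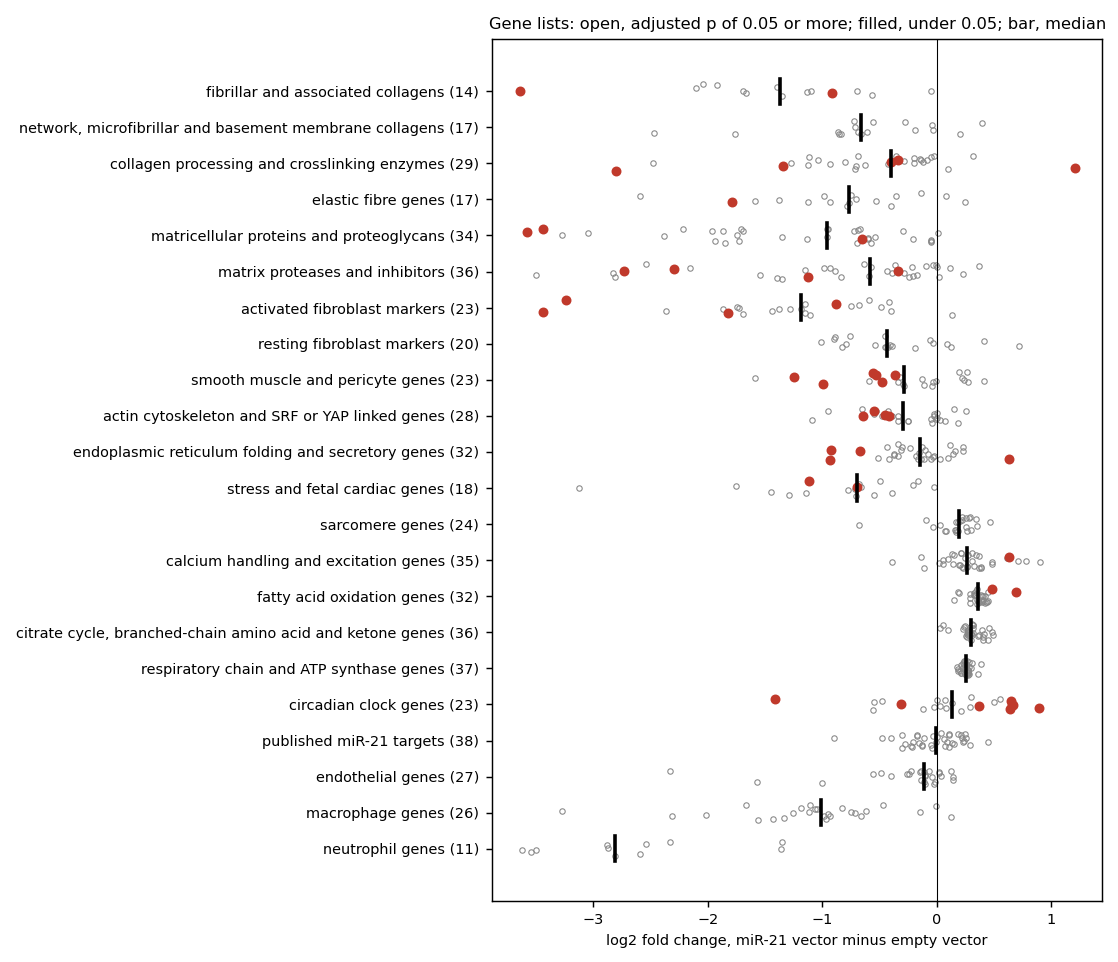
Log2 fold changes (horizontal axis, miR-21 vector minus empty vector) of the tested members of 22 gene lists, with the number tested in brackets; filled points passed an adjusted p of 0.05 and bars are medians. The 14 fibrillar collagens and 22 of the 23 activated fibroblast markers lie left of 0, and the 32 fatty acid oxidation, 36 citrate cycle and 37 respiratory chain genes all lie right of 0.

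The secretory pathway that makes matrix proteins showed a few changes. Of 32 genes of endoplasmic reticulum folding and secretion, 3 fell and 1 rose, against 1.37% and 0.881% of all genes. In the fit of the 12 libraries 9 fell and 1 rose, against 6.76% and 5.73% of all. Ckap4, a shaping protein of the rough endoplasmic reticulum, stood at 52.4 to 71.5 CPM (median 57.2) and fell to 34.9 to 43.4 CPM (median 36.5) (-0.67 ± 0.13, adjusted p = 0.0197, 0.00285 without the 4 libraries, range 0.000143 to 0.0749 over its alternatives). Creb3l1, a transcription factor of collagen secretion, changed by -0.92 ± 0.21 on the log2 scale, and Kdelr3, a receptor that returns proteins to the endoplasmic reticulum, by -0.93 ± 0.25. Herpud1, of the degradation of misfolded proteins, went the other way, standing at 144 to 217 CPM (median 196) with the empty vector and 253 to 327 CPM (median 283) with miR-21 (0.64 ± 0.16, adjusted p = 0.0446).

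Part of the genes of contractile stress fibres fell. Of 23 smooth muscle and pericyte genes 6 fell (1.37% of all genes), and 1, Mcam, without the 4 libraries (0.297% of all). In the fit of the 12 libraries 8 of 22 fell and 3 rose, against 6.76% and 5.73% of all. Of 28 genes of the actin cytoskeleton that are linked to the factors SRF or YAP, 4 fell. In the fit of the 12 libraries 12 of these 28 fell, and 1, Tpm4, without the 4 libraries. The groups of 10 of these 28 did not overlap, all lower, against 2.41% of all genes. Tpm4, a tropomyosin of non-muscle cells, stood at 155 to 189 CPM (median 165) and fell to 107 to 129 CPM (median 116) (-0.55 ± 0.10, adjusted p = 0.0164). Tagln, transgelin of smooth muscle and myofibroblasts, stood at 27.1 to 61.1 CPM (median 40.8) and 19.6 to 27.6 CPM (median 20.7) (-0.99 ± 0.23, adjusted p = 0.0394). The highest miR-21-vector value of Tagln, in replicate 2, overlapped the lowest empty-vector value. Cnn1, a calponin, changed by -1.25 ± 0.29 on the log2 scale, its relative Cnn2 by -0.42 ± 0.10, Csrp1, a LIM protein of stress fibres, by -0.45 ± 0.11, Mylk, myosin light chain kinase, by -0.36 ± 0.08, and Fscn1, the actin bundler fascin, by -0.64 ± 0.17. The sum of the 8 listed smooth muscle and pericyte markers was 979 to 1293 CPM (median 1116) with the empty vector and 1213 to 1430 CPM (median 1275) with the miR-21 vector. That sum is mostly the pericyte genes Rgs5 (medians 573 and 668 CPM) and Abcc9 (289 and 387 CPM), while 5 of the 8, Cnn1, Tagln, Myh11, Lmod1 and Pdgfrb, had a lower mean with miR-21.

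Genes of cardiomyocyte energy use were higher by small steps. The list of fatty acid oxidation also holds genes of fatty acid uptake and storage, and all 32 of its genes had log2 fold changes above 0, with a median of 0.36, and 2 rose (0.881% of all genes rose). In the fit of the 12 libraries 26 of 32 rose (5.73% of all), and 4 rose without the 4 libraries (0.416% of all), with a median of 0.26. In the fits of 11 of the 12 libraries 8 to 28 rose, the fewest without miR-21-vector replicate 2. The 2 were Dgat2, which makes triglycerides, and Cpt2, of oxidation. Dgat2 stood at 206 to 341 CPM (median 308) and 426 to 521 CPM (median 449.9) (log2 fold change 0.70 ± 0.16, adjusted p = 0.0362). Cpt2, a carnitine palmitoyltransferase of the inner mitochondrial membrane, stood at 179 to 249 CPM (median 236) and 286 to 354 CPM (median 305) (0.48 ± 0.13, adjusted p = 0.0475). Neither gene had overlapping groups, and both passed without the 4 libraries, at 0.00103 and 0.0273, in ranges of 0.000369 to 0.106 and 0.000793 to 0.134 over their alternatives. The lowest empty-vector values of both were in replicates 4 and 5.

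Genes of the citrate cycle, branched-chain amino acid and ketone use were also all above 0, 36 of 36, with a median of 0.30, and of 0.17 without the 4 libraries. Of these 0 passed, and 22 rose in the fit of the 12 libraries (5.73% of all genes), 8 without miR-21-vector replicate 2. Without the 4 libraries 1 rose (0.416% of all). That gene was Dbt, of the branched-chain keto acid dehydrogenase, at 46.1 to 71.6 CPM (median 67.4) and 78.7 to 95.7 CPM (median 90) (log2 difference 0.49 ± 0.15, adjusted p = 0.0695). Bcat2, the mitochondrial branched-chain aminotransferase, stood at 100.3 to 123 CPM (median 114) and 124 to 157 CPM (median 145) (0.31 ± 0.09, adjusted p = 0.0643). The groups of 19 of the 36 did not overlap, all higher, against 3.03% of all genes. Respiratory chain and ATP synthase genes were above 0 in 37 of 37, with a median of 0.26 and 0 past the threshold. In the fit of the 12 libraries 3 of the 37 rose, near the 5.73% of all genes, and without the 4 libraries the median was 0.12 with 0 past the threshold. Sdha, of complex II, stood at 1321 to 1766 CPM (median 1621) and 1873 to 2179 CPM (median 2040.4) (0.36 ± 0.14, adjusted p = 0.111), and Cox6a2, the muscle form of a complex IV subunit, at 940.4 to 1594 CPM (median 1358) and 1541 to 2095 CPM (median 1599) (0.38 ± 0.14, adjusted p = 0.0958). Cat, the peroxisomal antioxidant catalase, stood at 242 to 274 CPM (median 247) and rose to 303 to 371 CPM (median 314) (0.36 ± 0.08, adjusted p = 0.0281). It was the 1 rise among 31 heat shock and antioxidant genes, where 0.881% of all genes rose. In the fit of the 12 libraries 5 of the 31 rose and 4 fell, against 5.73% and 6.76% of all.

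Contractile, electrical and stress genes of the cardiomyocyte were measured beside these. Of 24 sarcomere genes 0 passed, with a median of 0.20, and 2 rose in the fit of the 12 libraries (5.73% of all genes rose), while the median was 0.05 without the 4 libraries. Lmod2, a leiomodin of thin filaments, stood at 434 to 637 CPM (median 578) and 654 to 735 CPM (median 699) (0.35 ± 0.10, adjusted p = 0.0518), and Tcap, telethonin, at 1396 to 2676 CPM (median 1969) and 2138 to 3379.5 CPM (median 2819) (0.47 ± 0.14, adjusted p = 0.0659). Of 35 genes of calcium handling and excitation 1, Kcnj5, rose, against 0.881% of all genes. In the fit of the 12 libraries 9 rose (5.73% of all), and 1, Kcnj5 again, without the 4 libraries (0.416% of all). The median was 0.26, and 0.10 without the 4 libraries. Kcnj5, a subunit of the acetylcholine-gated potassium channel, stood at 67 to 109.7 CPM (median 91.2) and 123 to 147 CPM (median 134) (0.63 ± 0.14, adjusted p = 0.0325), with no overlap.

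Stress and fetal genes lay below 0 in 18 of 18, with a median of -0.70, and of -0.54 without the 4 libraries. Of them 2 fell (1.37% of all genes), and 5 in the fit of the 12 libraries (6.76% of all). Without the 4 libraries 1 fell, Rcan1 (0.297% of all). Cdkn1a, the cell cycle inhibitor p21, stood at 91.3 to 160.5 CPM (median 117) and 36.5 to 75.2 CPM (median 57.3) (-1.12 ± 0.22, adjusted p = 0.0197, 0.103 without the 4 libraries), with no overlap. Rcan1, a calcineurin regulator and calcineurin target, stood at 77.8 to 176 CPM (median 122) and 64.3 to 88.9 CPM (median 77.1) (-0.69 ± 0.15, adjusted p = 0.0281, 0.0458 without the 4 libraries). The usual stress markers, named after their values were seen, had wide ranges in both groups. Nppa, the atrial natriuretic peptide, stood at 273 to 6699 CPM (median 2323) and 182 to 2710.3 CPM (median 797) (-1.45 ± 0.71, adjusted p = 0.182), Nppb, the B-type peptide, at 114 to 908 CPM (median 499) and 225 to 445 CPM (median 322) (-0.66 ± 0.35, adjusted p = 0.213), and Myh7, the slow myosin heavy chain, at 328 to 5739 CPM (median 1958) and 553 to 3283 CPM (median 1353) (-0.68 ± 0.67, adjusted p = 0.504). The 6 atrial markers summed to 292 to 6719 CPM (median 2341) and 206 to 2747 CPM (median 816), mostly Nppa. The atrial genes Myl7 and Sln stood at 0.337, 0.314 and 0 CPM and at 0 CPM in the 3 libraries with the most Nppa (empty-vector replicates 4, 5 and 6, with Nppa at 6699, 4199 and 2824 CPM), and among the 12 libraries were highest in empty-vector replicate 3, at 45.8 and 6.65 CPM, where Nppa stood at 1088 CPM.

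Clock genes changed in both directions. In the circadian clock, CLOCK and BMAL1, the product of Arntl, switch on Per, Cry, Nr1d and the output factors Dbp, Tef and Hlf through E-boxes, PER and CRY feed back on them, and the NR1D proteins repress Arntl through RRE elements. Of 23 clock genes 6 rose and 2 fell, against 0.881% and 1.37% of all genes. In the fit of the 12 libraries 8 rose and 3 fell, against 5.73% and 6.76% of all. Without the 4 libraries 2 rose, Tef and Hlf (0.416% of all). In the fits of 11 of the 12 libraries 7 to 9 rose and 3 to 4 fell. The groups of 4 genes did not overlap in the higher and of 4 in the lower direction, against 3.03% and 2.41% of all genes. The time of day of collection is not in the labels.

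Of the activators Arntl and Clock fell. Arntl stood at 6.50 to 12.4 CPM (median 9.28) and fell to 2.63 to 4.64 CPM (median 3.45) (log2 fold change -1.41 ± 0.30, adjusted p = 0.0281, 0.149 without the 4 libraries, range 0.00103 to 0.149 over its alternatives). Clock stood at 41 to 53.6 CPM (median 43.2) and fell to 34.2 to 37.8 CPM (median 36) (-0.31 ± 0.08, adjusted p = 0.0486). Neither overlapped between the groups. Npas2, a relative of Clock, stood at 4 to 5.33 CPM (median 4.55) and 2.30 to 4.05 CPM (median 3.40) (-0.48 ± 0.22, adjusted p = 0.158).

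Of the output factors Tef and Hlf rose, and of the repressors Per3, Cry1 and Nr1d2. Tef stood at 149 to 219 CPM (median 172) and rose to 236 to 309 CPM (median 271) (0.65 ± 0.10, adjusted p = 0.00431), and Hlf stood at 17.8 to 29.6 CPM (median 25.1) and rose to 36.1 to 54 CPM (median 44.2) (0.89 ± 0.16, adjusted p = 0.0115). Both had groups that did not overlap. Dbp, the third factor of that family, stood at 102 to 222 CPM (median 154) and 133 to 236 CPM (median 177) (0.22 ± 0.20, adjusted p = 0.476), and its groups overlapped over most of their range. Per3 stood at 53.6 to 94.6 CPM (median 60) and 80.5 to 119 CPM (median 110.0) (0.66 ± 0.15, adjusted p = 0.0303), Cry1 at 7.68 to 13.2 CPM (median 8.96) and 13.1 to 17.1 CPM (median 14.6) (0.64 ± 0.16, adjusted p = 0.0420), and Nr1d2 at 97.9 to 143 CPM (median 123) and 142 to 163 CPM (median 156) (0.37 ± 0.09, adjusted p = 0.0436). In these 3 genes the highest empty-vector library, replicate 3, reached the lowest miR-21-vector library. Wee1, a cell cycle kinase under clock control, stood at 9.63 to 14 CPM (median 11.7) and 16.5 to 19.3 CPM (median 19) (0.66 ± 0.13, adjusted p = 0.0164).

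Other clock members did not pass. Bhlhe40, a repressor, stood at 87.1 to 99 CPM (median 94.2) and 50.4 to 76.7 CPM (median 65.6) (-0.55 ± 0.15, adjusted p = 0.0510), and its groups did not overlap. Per2 differed by 0.51 ± 0.16 on the log2 scale (adjusted p = 0.0753), Nr1d1 by -0.56 ± 0.19 (0.0898), Per1 by 0.03 ± 0.16 (0.928), Ciart by -0.03 ± 0.29 (0.963) and Nfil3 by 0.01 ± 0.14 (0.981). Nr3c1, the glucocorticoid receptor, stood at 77.5 to 90.5 CPM (median 83.2) and rose to 92.8 to 105 CPM (median 98.3) (0.24 ± 0.05, adjusted p = 0.0297). Of 17 listed genes of the glucocorticoid and mineralocorticoid response, with a median of -0.04, this receptor was the rise and Cdkn1a the fall. Of all genes, 0.881% rose and 1.37% fell. Without the 4 libraries 0 of the 17 passed.

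**Figure D4:**
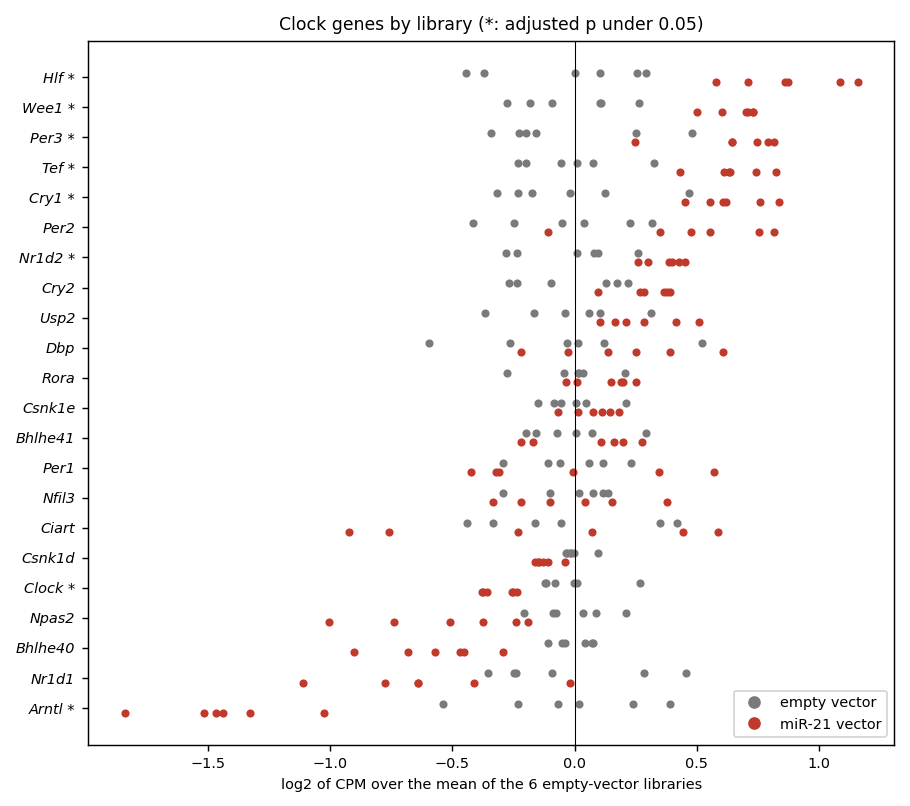
Log2 of each library's CPM over the mean of the 6 empty-vector libraries (horizontal axis) for 22 of the 23 clock genes, empty vector in grey and miR-21 vector in red, ordered by log2 fold change; stars mark genes with an adjusted p under 0.05. Arntl lies furthest to the left and Hlf furthest to the right, and Per1, Nfil3 and Ciart spread around 0.

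Promoter sequences of 3 clock genes that changed are printed because each holds the element by which the clock is known to act on it. They are from RefSeq (GRCm38.p6), run from 250 bases before to 50 after the annotated start, read 5′ to 3′ on the gene's strand, and have the element in capitals. Tef (chr15:81802423-81802722, plus strand) and Cry1 (chr10:85185005-85185304, minus strand) hold an E-box, CACGTG, whose first base is at -127 and -60 from the start, and Arntl (chr7:113207261-113207560, plus strand) holds an RRE core, TAGGTCA, at 30.
Tef promoter: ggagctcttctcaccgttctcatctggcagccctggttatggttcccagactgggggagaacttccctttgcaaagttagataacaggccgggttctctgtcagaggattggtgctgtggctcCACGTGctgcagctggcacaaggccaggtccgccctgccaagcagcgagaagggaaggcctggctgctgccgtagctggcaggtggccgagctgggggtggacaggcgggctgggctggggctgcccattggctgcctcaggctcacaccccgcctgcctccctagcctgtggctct
Cry1 promoter: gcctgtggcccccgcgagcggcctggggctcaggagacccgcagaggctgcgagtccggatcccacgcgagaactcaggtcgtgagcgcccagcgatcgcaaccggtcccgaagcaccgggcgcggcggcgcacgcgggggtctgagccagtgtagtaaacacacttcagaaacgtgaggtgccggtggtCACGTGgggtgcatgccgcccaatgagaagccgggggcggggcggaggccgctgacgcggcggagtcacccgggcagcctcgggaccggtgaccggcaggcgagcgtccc
Arntl promoter: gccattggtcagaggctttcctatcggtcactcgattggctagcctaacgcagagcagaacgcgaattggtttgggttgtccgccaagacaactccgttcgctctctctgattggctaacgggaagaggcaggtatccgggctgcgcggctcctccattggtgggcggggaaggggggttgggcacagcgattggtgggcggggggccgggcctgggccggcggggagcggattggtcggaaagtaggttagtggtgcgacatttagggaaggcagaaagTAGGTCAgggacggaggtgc
Of 18 clock genes with a promoter in the table, 5 held the E-box (Bhlhe41, Ciart, Cry1, Per1 and Tef), 27.8%, against 7.15% of all 32851 windows and 11.5% of the 10320 tested genes. Of these 5, Tef and Cry1 rose. The D-box, TTATGTAA or TTACGTAA on either strand, was in Per3 alone (1.06% of all windows), and the RRE core on either strand in Arntl and Nfil3 (2.61%). A match of letters is not a bound site, and a second Tef window, from another start, also held an E-box.

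Single secreted signals and antagonists were among the falls, 1 or 2 genes of each list below, where 1.37% of all genes fell. Bmp2, a bone morphogenetic protein, stood at 1.87 to 5.46 CPM (median 3.96) and fell to 0.928 to 2.36 CPM (median 1.30) (-1.40 ± 0.28, adjusted p = 0.0197), and was the fall among 24 BMP genes. Sfrp1, a secreted Wnt antagonist, stood at 33.4 to 132 CPM (median 64.6) and fell to 14.7 to 25.1 CPM (median 20.8) (-1.82 ± 0.39, adjusted p = 0.0281), and Dkk3, a Dickkopf family member, at 14.6 to 64.7 CPM (median 32.9) and 6.81 to 16.8 CPM (median 8.47) (-1.92 ± 0.48, adjusted p = 0.0446). They were the 2 falls among 28 Wnt genes. For Sfrp1 the groups did not overlap. Skil, the SMAD co-repressor SnoN, changed by -0.46 ± 0.12 on the log2 scale and was the fall among 25 TGF-beta and activin genes. Ereg, the EGF receptor ligand epiregulin, stood at 0.375 to 1.89 CPM (median 1.22) and 0 to 0.230 CPM (median 0.0774) (-3.38 ± 0.74, adjusted p = 0.0294), and with Flt4 made the falls among 42 growth factor genes. Nr4a3, a nuclear receptor of the early response, changed by -1.02 ± 0.24 and was the fall among 23 immediate early genes. In the fit of the 12 libraries 5 of 23 BMP, 6 of 26 Wnt and 6 of 24 TGF-beta and activin genes fell (6.76% of all). In that fit 4 of 40 growth factor genes fell and 5 rose (5.73% of all rose), and 4 of 23 immediate early genes fell. Without the 4 libraries 0 genes of these 5 lists passed.

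Chemokines with a fall were Ccl21a, the lymphatic attractant of T and dendritic cells, at 27.1 to 90.7 CPM (median 55.2) and 14.9 to 31.9 CPM (median 21.1) (-1.34 ± 0.30, adjusted p = 0.0355), and Cx3cl1, fractalkine of endothelium, at 22.7 to 39.6 CPM (median 24.2) and 13.6 to 19.2 CPM (median 15.9) (-0.75 ± 0.19, adjusted p = 0.0440). The groups of Cx3cl1 did not overlap and those of Ccl21a did. Of the 32 chemokine and cytokine genes tested, 30 lay below 0, with a median of -0.90. Of the 32, 2 fell (1.37% of all genes), and 4 of 25 fell in the fit of the 12 libraries (6.76% of all). Without the 4 libraries 0 passed and the median was -0.28.

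Markers of immune cells had low medians and no gene past the threshold. Macrophage genes had a median of -1.01 over 26 genes, which was -0.27 without the adipocyte-high libraries and -0.12 without the 4 libraries. In the fit of the 12 libraries 2 of 25 fell, against 6.76% of all genes. Gpnmb, of lipid-laden macrophages, stood at 3.15 to 40.1 CPM (median 13.5) and 2.53 to 6.82 CPM (median 3.24) (-2.31 ± 0.62, adjusted p = 0.0507), and Ctsk, a lysosomal collagenase, at 7.65 to 28.6 CPM (median 19.8) and 6.24 to 10.5 CPM (median 7.43) (-1.25 ± 0.34, adjusted p = 0.0532). Neutrophil genes had a median of -2.81 over 11 genes, -0.41 and -0.18 without those libraries. Mmp8, the neutrophil collagenase, stood at 0.214 to 11.6 CPM (median 1.24) and 0 to 1.14 CPM (median 0.224) (-3.50 ± 1.28, adjusted p = 0.101), with 11.6 CPM in empty-vector replicate 2 and 9.41 CPM in replicate 5 against at most 1.89 CPM in the other 10 libraries. Retnlg, another neutrophil gene, stood at 0.539 to 11.9 CPM (median 1.39) and 0 to 1.16 CPM (median 0.533). B cell genes had a median of -1.13 over 8 genes, -0.34 and -0.17 without those libraries, with Jchain, of secreted antibodies, at 2.29 to 126 CPM (median 9.26) and 0.253 to 19.7 CPM (median 2.70), and Cd22 at 1.21 to 8.62 CPM (median 1.65) and 0.384 to 1.49 CPM (median 0.859). Of 22 MHC class II and complement genes all lay below 0, with a median of -1.04, which was -0.38 and -0.17 without those libraries. In the fit of the 12 libraries 3 of 21 fell, against 6.76% of all genes. Serping1, the C1 inhibitor, stood at 210.4 to 558 CPM (median 308) and 146 to 260.3 CPM (median 164) (adjusted p = 0.0676).

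Endothelial genes had a median of -0.11 over 27 genes, with 0 past the threshold and 1 fall without the 4 libraries (0.297% of all genes). Nos3, endothelial nitric oxide synthase, stood at 61.8 to 84.9 CPM (median 74.9) and 54.6 to 70.8 CPM (median 64.1) (-0.24 ± 0.08, adjusted p = 0.0869), and Plvap, of fenestrated endothelium, at 13.4 to 70.6 CPM (median 36.4) and 8.10 to 20.3 CPM (median 13.1) (-1.57 ± 0.55, adjusted p = 0.0931). The 9 endothelial markers summed to 1769 to 2153 CPM (median 2056) and 1853 to 2211 CPM (median 1966). Adipocyte markers Cfd and Car3 differed by -5.72 ± 1.51 and -5.10 ± 1.37 on the log2 scale (adjusted p = 0.0505 and 0.0514), and Cfd stood at 1.04 to 148 CPM (median 7.45) with the empty vector and 0.153 to 1.92 CPM (median 0.826) with the miR-21 vector. Without the 3 adipocyte-high libraries Cfd and Car3 still differed, by -2.49 and -2.06 (adjusted p = 0.0371 and 0.0799). Mesothelial markers summed to 11.9 to 54.8 CPM (median 31.4) and 10 to 34.5 CPM (median 15.9), neutrophil markers to 13.8 to 268 CPM (median 24.9) and 2.95 to 54.9 CPM (median 10.8), T and NK cell markers to 3.07 to 24.5 CPM (median 6.55) and 2.06 to 11.9 CPM (median 3.78), B cell markers to 3.60 to 19.8 CPM (median 5.93) and 2.87 to 7.10 CPM (median 4.47), erythrocyte markers to 334 to 691 CPM (median 470.5) and 279.7 to 758 CPM (median 427), skeletal muscle markers, nearly all from Ckm of heart and skeletal muscle, to 1553 to 2556 CPM (median 2233) and 2597 to 3178 CPM (median 2735), and Schwann and nerve markers to 14.7 to 21.2 CPM (median 17.7) and 14 to 21.8 CPM (median 19.2). No marker was at 0 in all 6 libraries of either group. The part of these cell types in the falls of matrix genes was not tested.

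Of 38 tested mRNAs published as miR-21 targets, 0 passed in either direction, 19 lay above 0 and 19 below, and the median was -0.0034. In the fit of the 12 libraries 1 rose and 2 fell, against 5.73% and 6.76% of all genes. Pdcd4, a translation inhibitor and the textbook target, stood at 15.9 to 28.5 CPM (median 18) and 15.5 to 21 CPM (median 18.4) (-0.11 ± 0.15, adjusted p = 0.623). Spry1, an inhibitor of ERK signalling and a target described in heart fibroblasts, stood at 29 to 48 CPM (median 37) and 27.6 to 56.9 CPM (median 41.3) (0.15 ± 0.15, adjusted p = 0.492). Both pairs of groups overlapped over most of their range.

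Other targets also missed the threshold. Reck, an inhibitor of matrix metalloproteases, stood at 10.1 to 16.8 CPM (median 11.9) and 9.11 to 13.8 CPM (median 11.4) (-0.17 ± 0.14, adjusted p = 0.443), and Timp3, another such inhibitor, at 316 to 407 CPM (median 344) and 264 to 419.6 CPM (median 369.6) (0.00 ± 0.12, adjusted p = 0.996). The TGF-beta receptor Tgfbr2 differed by -0.40 ± 0.16 on the log2 scale (adjusted p = 0.115), the inhibitor of that pathway Smad7 by -0.22 ± 0.16 (0.337), the Notch ligand Jag1 by -0.13 ± 0.11 (0.447), and the fatty acid sensor Ppara by 0.29 ± 0.18 (0.285). The ends of the list were Skp2, a ubiquitin ligase subunit of the cell cycle, at -0.89 ± 0.31 (adjusted p = 0.0898), and Yod1, a deubiquitinase, at 0.45 ± 0.18 (0.122). Mtus1, a microtubule-associated tumour suppressor, had the smallest p, with 193 to 243 CPM (median 214) and 226 to 279 CPM (median 257) (0.25 ± 0.07, adjusted p = 0.0569), and the value was higher with miR-21. Stat3, a transcription factor of cytokine signalling, stood at 204 to 231 CPM (median 207) and 175 to 189.6 CPM (median 183) (-0.21 ± 0.07, adjusted p = 0.0851), lower and without overlap. Sox7, an endothelial transcription factor named in the title of the series, stood at 22.8 to 42.6 CPM (median 34.5) and 24.4 to 40.8 CPM (median 31.5) (-0.04 ± 0.18, adjusted p = 0.907), and its log2 fold change with swimming was -0.84 (adjusted p = 0.0144, adjusted p of the difference 0.103).

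Genes with a site for the seed in their 3′ UTR did not hold a larger share of falls. Of 12969 tested genes with a 3′ UTR of at least 30 bases, 1012 held an 8-base match or the 7-base match to bases 2 to 8, as printed for the 6 targets. Their median log2 fold change was 0.02, against -0.01 for the 11351 genes with no match of any kind searched for. Another 606 genes held only a match to bases 2 to 7 with the A after it, with a median of 0.006. Of the 1012, 9 fell (0.889%) and 7 rose (0.692%), against 1.40% and 0.887% of all genes with a 3′ UTR. Of the 38 published targets 24 held such a site, 11 of them below 0 and 13 above, with a median of 0.02. The 1012 genes had longer 3′ UTRs, with a median of 2824 bases against 1044 for the 11351 with no match. Effects of miR-21 on translation cannot be seen in these data.

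The effect of the vector was also measured with swimming. No library is shared between the contrasts, though they share the estimate of the spread. Of the 304 genes, 207 had the same sign with swimming, 68.1% against 52.1% of all tested genes: 95 of 119 higher genes and 112 of 185 lower genes. Of 618 genes (4.58%) that passed with swimming, 252 higher (1.87%) and 366 lower (2.71%), 27 were among the 304, 8.88% of the 304 and 4.37% of the 618, and 23 of these had the same sign. Of those with values in this text, these are Lonrf1 (0.54 with swimming), Kctd10 (-0.26), Ppp2cb (-0.25), Hdac4 (0.33), Tmem57 (0.28), Pik3ip1 (0.40), Tpm4 (-0.81), Mcam (-0.71), Fscn1 (-1.04) and Col5a3 (-1.22), all log2 fold changes of the same sign as without swimming. Tspan13, Slc6a7, Cyp4b1 and Htr2b passed in both arms with opposite signs.

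The difference between the effects passed the threshold for 73 genes (0.541%), 29 with a higher and 44 with a lower value without swimming, and 20 of them were among the 304. Among these 20 were Tspan13, Slc6a7, Cyp4b1, Htr2b, Meox2, Comp, Bmp2, Slc35e4, Ism1, Kcnma1, Wee1, Cyp2e1, Yipf4, Ccl21a, Dmtn, Ifitm10, Rgs1, Apol6 and Enho, and those given with values here were chosen after their values were seen. Without miR-21-vector swimming replicate 2, 5 of the 20 still passed this test, as did 5 of the 17 that could be tested without the 3 adipocyte-high libraries, and 3 of 17 without the 4 libraries (Cyp4b1, Slc6a7 and Tspan13). Comp had a log2 fold change of -3.44 without and 2.84 with swimming, with 186 CPM in that library and 8.41 to 45.9 CPM in the other miR-21-vector swimming libraries, and without it the value with swimming was 1.58 and the adjusted p of the difference 0.0650. Bmp2 had -1.40 and 0.65 (adjusted p of the difference 0.0583 without that library). Htr2b, the serotonin receptor 2B, had -1.99 and 2.42 (0.0241 without that library and 0.0547 without the 4 libraries), with 0.744 to 3.01 CPM (median 1.53) and 0.155 to 0.691 CPM (median 0.470) without swimming. Kcnma1, a calcium-gated potassium channel, had -2.27 and 1.77 (0.0711 without that library). Wee1 went from 0.66 without to -0.20 with swimming (0.0619 without that library), Meox2, a homeobox factor of endothelium, from 0.39 to -0.30 (0.0315, and 0.0815 without the 4 libraries), and Cyp4b1, a cytochrome P450, from 0.53 to -0.46 (0.00360, and 0.00910 without the 4 libraries). Without the 3 adipocyte-high libraries 53 genes passed this test, and 39 without the 4 libraries that stood apart. The count was 95, 85, 147, 38, 19 and 174 without empty-vector replicates 1 to 6, and 34, 25, 21, 26, 72 and 74 without miR-21-vector replicates 1 to 6. It was 25, 38, 45, 82, 18 and 27 without replicates 1 to 6 of the empty-vector swimming group, and 243, 32, 305, 72 and 358 without replicates 1 to 5 of the miR-21-vector swimming group. Of the lists described, the difference passed for 4 of 7 adipocyte markers, for 2 of 23 activated fibroblast markers (Comp and Wisp2), 2 of 34 matricellular genes (the same pair), 2 of 20 resting fibroblast markers, 2 of 32 chemokine and cytokine genes, 1 of 23 clock genes, 0 of 14 fibrillar collagens and 0 of 32 genes of the fatty acid oxidation list.

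**Figure D5:**
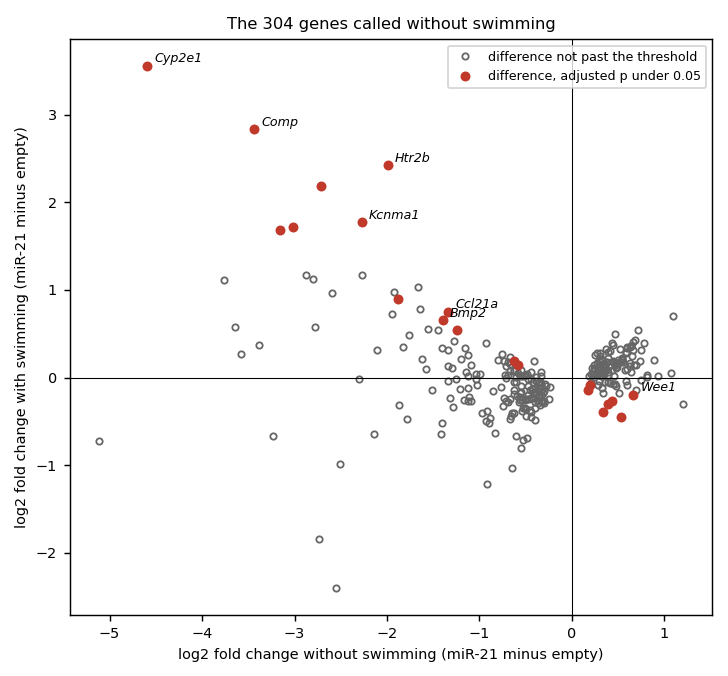
Log2 fold changes of the 304 genes, miR-21 vector minus empty vector, without swimming (horizontal axis) and with swimming (vertical axis); filled points are the 20 whose difference passed an adjusted p of 0.05. Points at the lower left and upper right have the same sign in both arms, 207 of the 304.

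In the authors' deposited table of this comparison, 1093 of 17348 genes had an adjusted p under 0.05, 566 higher and 527 lower with miR-21. It held 239 of the 304 genes, which is 78.6% of the 304 and 21.9% of the 1093, and all 304 had the same sign there. In the authors' deposited table Sema3f had a log2 fold change of -0.85, Hdac4 of 0.60, Tef of 0.65, Arntl of -1.41 and Comp of -3.44.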

How the data were processed

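The messenger RNA of mouse hearts was sequenced after TRIzol extraction with a stranded TruSeq mRNA kit, per the labels' protocols. The authors deposited a table of raw counts per gene and a table of log2 fold changes and p-values for their own comparison of these groups, and their normalized values were not used. The genome build is GRCm39, per the submitters' processing notes, and the aligner and counter are not stated in these sources. Only the count columns that matched a sample's title were used for tests, and 69 other columns of per-sample values were not used. One sample of the miR-21-vector swimming group, which has no matched count column here, is not analysed here, so 23 of 24 samples entered.

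Deposited counts were tested with edgeR 4.0.16 (R 4.3.3): TMM scaling, filterByExpr by group, 1 robust quasi-likelihood fit of the 4 groups, and Benjamini-Hochberg adjustment over all genes tested, with a threshold of 0.05. Log2 fold changes are miR-21 minus empty vector, with the SE from the same fit. The alternatives were RLE scaling, other filters, DESeq2 1.42.0, limma 3.58.1 (voom with quality weights), the 12 libraries alone, each library left out, and, added after seeing the data, the adipocyte-high libraries left out, with or without empty-vector replicate 4, and each library left out of the fit of the 12. The edgeR procedure was tested on simulated counts. Median, lowest and highest values are given for CPM because each group has 6 libraries.

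The values named are the 12 rises and 12 falls with the smallest p and a mean of at least 1 CPM, up to 4 changed genes of each gene list, up to 2 genes where none changed, and genes of the clock and published target lists; a few genes under this rule are not reported here. The comparison, its members and the lists were chosen with earlier results of these data known. Sequences come from RefSeq and GENCODE for GRCm38, another build than the counts use, so they serve only to show sequences. Figures were drawn with matplotlib 3.10.9.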

Additional observations from a re-analysis of the deposited data

Results flagged for a closer look

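Of 250 groups of 6 values (125 genes with values in the text, both vectors), 16 had 1 library far from the other 5, with a gap past the 95% limit of Dixon's test; chance gives about 1 in 20. In miR-21-vector replicate 6, the only library of its group above 0 on the first principal component, the high values were Nckap5 at 10 CPM (others 6.4 to 7.59), Tgfbr2 at 107 (77.7 to 85.3), Gpnmb at 6.82 (2.53 to 3.76), Mmp8 at 1.14 (0 to 0.387), Jchain at 19.7 (0.253 to 5.53) and Serping1 at 260 (146 to 177). Tagln at 27.6 CPM (19.6 to 21), Pik3ip1 at 71.7 (53.3 to 59.7) and Dgat2 at 521 (426 to 459) were high in miR-21-vector replicate 2. Dmtn at 4.64 CPM (6.19 to 7.06) and Per3 at 80.5 (106 to 119) were low in replicate 3, and Comp at 28.2 (4.18 to 11.8) was high in replicate 5. With the empty vector, Ly6a at 245 CPM (162 to 186) and Vmp1 at 88.3 (52.5 to 63.4) were high in replicate 2, Clock at 53.6 (41 to 44.9) in replicate 1 and Yod1 at 3.72 (1.72 to 2.34) in replicate 3.

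The effect of the miR-21 vector without swimming differed from that with swimming for 12 of the 125 genes by edgeR's test of the difference. The difference in log2 fold change, without minus with swimming, was -0.72 for Slc35e4 (adjusted p = 0.0291), -0.81 for Dmtn (0.033), -6.28 for Comp (0.0291), -2.05 for Bmp2 (0.0291), -2.09 for Ccl21a (0.033), -4.41 for Htr2b (0.00965) and -4.04 for Kcnma1 (0.0291). It was 0.86 for Wee1 (0.0291), 0.69 for Meox2 (0.0219) and 0.99 for Cyp4b1 (0.00812). The largest were the adipocyte markers Cfd at -11.13 (0.0291) and Car3 at -9.78 (0.0291), which were over 100 CPM in empty-vector replicates 2 and 5 and in miR-21-vector swimming replicate 2.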

How the results depend on the processing

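The count of changed genes was 304, and 150 with no filter, 1235 by DESeq2, 1307 by limma with voom, 1622 in the fit of the 12 libraries, 771 and 527 without the adipocyte-high libraries (of 23 and of 12), 96 without the 4 libraries that stood apart, and 17 to 2885 with 1 library left out. RLE scaling gave 290 and a mean of at least 1 CPM 315. The count in the fit of the 12 libraries ran from 502 to 2171 with 1 left out. For the difference from the swimming arm, the count of 73 became 719 by DESeq2, 131 by limma and 39 without the 4 libraries, and 18 to 358 with 1 left out. The 76 changed genes with values kept their direction in all 2400 values under these alternatives and their call in 1727, and the cause of the lost calls was not tested. Of the 76, 14 passed without empty-vector replicate 5, 15 without miR-21-vector replicate 2 and 20 without empty-vector replicate 4. The 49 other genes gave 1566 values, 172 of them past the threshold. No paired analysis was possible because the replicate numbers in the titles are not shared between the groups. With 12744241 to 14657630 counts per library, genes at 1 CPM rest on few reads.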
